A study of Homo sapiens with 12 samples.

Results

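To ask what happens to the ribosome-making machinery of a colon cancer cell after DNA damage, and whether ATF3 takes part in it, 56 genes of ribosome biogenesis and the nucleolus were examined on 12 Illumina bead arrays. The genes came from a list of 9 role groups, and a gene entered when a probe mapped to it by its current or older symbol had a detection p-value under 0.01 on at least 3 of the 12 arrays. Of the 56 genes, 50 were measured this way, through 70 probes, among 10464 genes in all. WDR43, GNL3 and EBNA1BP2 were not found in the probe annotation used here. TCOF1, NPM1 and UTP20 had probes that did not pass the detection filter. The 50 genes are therefore those with a measurable signal, not the whole list. The list was chosen with earlier results of these data known.

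The cells were HCT116, an established human colon cancer line, in 4 groups of 3 arrays each. The groups were ATF3-knockout (KO) cells given 1.5 µM camptothecin (CPT) for 4 h, KO cells given the solvent DMSO for 4 h, wild-type (WT) cells given the same CPT, and WT cells given DMSO. CPT is a topoisomerase I inhibitor that damages DNA. The KO cells carry the name E11 and were made by targeting exon 3 of ATF3 with a recombinant adeno-associated virus, which leaves a small deletion, so any KO effect is that of this line. The ATF3 probe reads RNA and is no check of the loss of the protein: its log2 signal rose with CPT by 2.55 ± 0.47 (SE) in KO cells and by 3.54 ± 0.47 in WT cells, and under CPT the log2 difference, KO minus WT, was -2.39 (limma, adjusted p = 0.0364). Whether the replicates came from different cultures is not stated, so the p-values cover the variation among these arrays only, and that variation may be technical.

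Ribosomes are assembled in the nucleolus. RNA polymerase I makes one long precursor RNA, which is bound as it is made by the small subunit processome, a large particle built around the U3 small nucleolar RNA, with subcomplexes called UTP-A and UTP-B. Small nucleolar RNPs of the box C/D and H/ACA classes guide methylation and pseudouridylation of the rRNA. The precursor is then cut into separate routes, where pre-40S factors finish the small subunit, and the PeBoW complex (PES1, BOP1, WDR12) and many other factors finish the large subunit. Genes of this machinery are highly active in colon cancer cells and many are known MYC targets.

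CPT lowered the RNA of many genes of this machinery in both lines. In KO cells 21 of the 50 genes fell and none rose, against a background of 17.9% of all genes called lower and 13.8% called higher (limma, threshold of 0.05 on p adjusted by Benjamini-Hochberg across the 10464 genes). In WT cells 23 of 50 fell and none rose, against 18.5% of all genes lower and 13% higher. The median log2 change of the 50 genes was -0.44 in KO and -0.59 in WT cells, beside 0.03 over all genes in each. The same 21 genes fell in both lines, NOP14 and NOL9 passed the threshold in WT cells alone, and 27 passed it in neither. The detection filter can admit a gene through its DMSO arrays alone, and the fall of such a gene is then description only. Of the 43 genes detected on all 12 arrays, 19 fell in KO cells (16.8% of all such genes lower) and 20 in WT cells (17.4%). The called changes ran from -1.60 to -0.53 in KO cells and from -1.65 to -0.50 in WT cells. In RNA from whole cultures, fewer cells that express a gene and less of its RNA per cell cannot be told apart.

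The fall was seen in each replicate. The median change of the 50 genes was -0.31, -0.55 and -0.70 in KO replicates 1, 2 and 3, and -0.40, -0.71 and -0.74 in WT replicates 1, 2 and 3, while the median over all genes ran from 0.00 to 0.04 in all 6. The change was negative in all 3 replicates for 29 of 50 genes in KO cells (33.8% of all genes) and for 37 of 50 in WT cells (33.4%). The CPT arrays all lay below the DMSO arrays for 26 genes in KO cells, against 25.4% of all genes, and for 29 genes in WT cells, against 22.3%. NOP10 was the only member whose CPT arrays all lay above its DMSO arrays, in KO cells (23.5% of all genes, beside 18.1% in WT cells), and median scaling called it higher in both lines. The replicate numbers were taken to pair the samples, which the labels do not state. With the replicate number as a block, 27 genes were called in KO cells (48.6% of all genes), 26 of them lower (24.4% of all genes). In WT cells 31 were called (49.3%), 30 of them lower (25.4%).

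**Figure D1:**
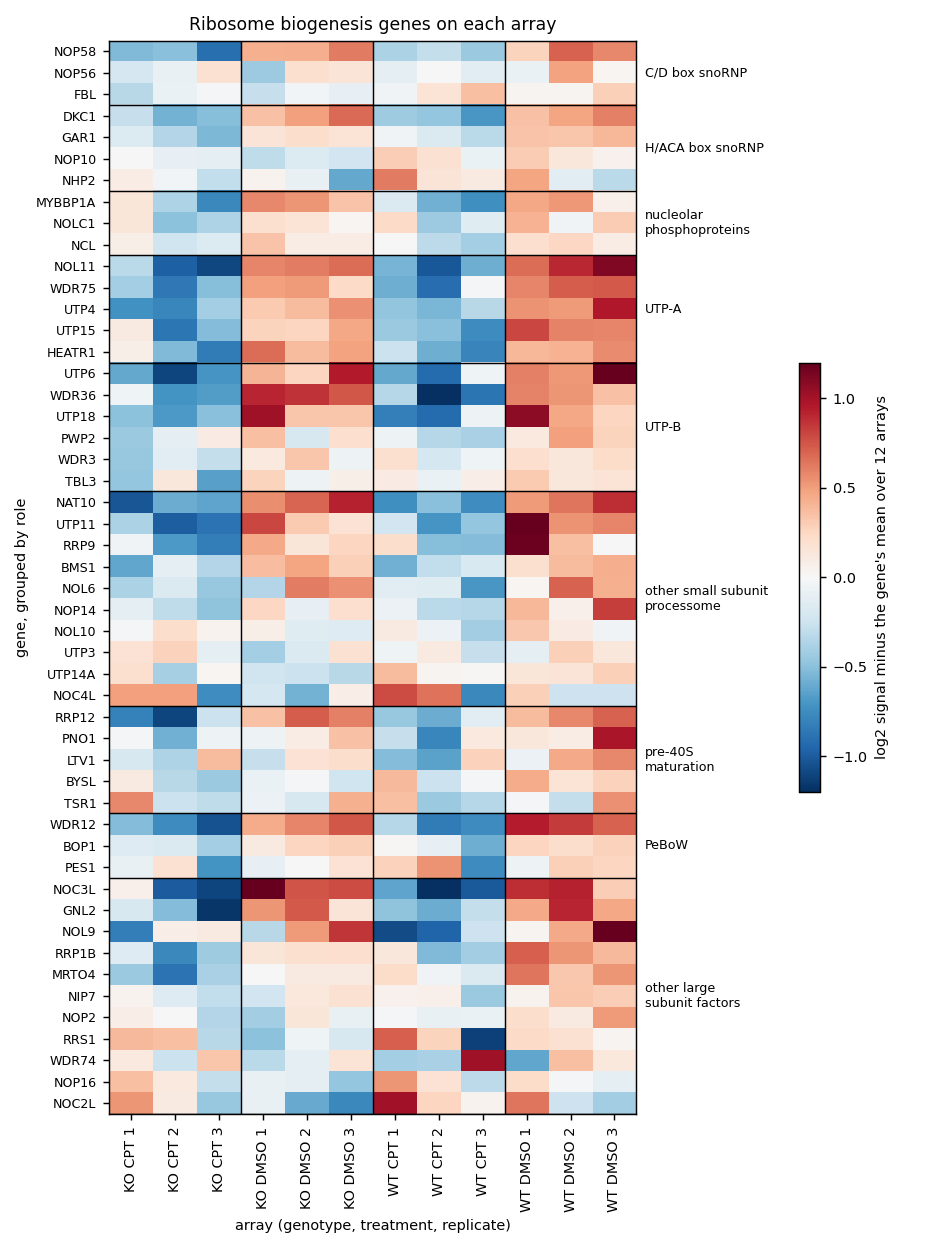
Signal of the 50 genes (rows, by role) on the 12 arrays (columns), as the log2 signal minus the gene's mean over all arrays, with the colour scale capped at ±1.2. Many rows, among them every UTP-A row, are bluer in the CPT columns than in the DMSO columns of both KO and WT cells, while FBL, NOP56 and NOP10 are pale.

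The start regions of 5 of these genes are given because they show genes that fell and genes that did not, with and without the same DNA words. They are RefSeq sequences of GRCh38.p14, from 250 bases before to 50 bases after the start, on the coding strand. NOC3L (chr10:94362890-94363189, minus strand), NAT10 (chr11:34105379-34105678, plus strand) and WDR12 (chr2:202911624-202911923, minus strand) fell in both lines. FBL (chr19:39846330-39846629, minus strand) and NOC4L (chr12:132144207-132144506, plus strand) did not pass the test in either. These 5 were picked after their values were seen. Capitals mark the E-box CACGTG in NOC3L, NAT10 and FBL and the ATF/CRE word TGACGTCA in NOC4L, and WDR12 has neither.
NOC3L: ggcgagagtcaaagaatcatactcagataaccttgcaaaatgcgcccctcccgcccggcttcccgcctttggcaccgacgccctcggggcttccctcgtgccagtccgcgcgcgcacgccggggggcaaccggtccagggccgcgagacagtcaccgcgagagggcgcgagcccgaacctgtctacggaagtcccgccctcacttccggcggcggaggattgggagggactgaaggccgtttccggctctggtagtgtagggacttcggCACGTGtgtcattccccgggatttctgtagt
NAT10: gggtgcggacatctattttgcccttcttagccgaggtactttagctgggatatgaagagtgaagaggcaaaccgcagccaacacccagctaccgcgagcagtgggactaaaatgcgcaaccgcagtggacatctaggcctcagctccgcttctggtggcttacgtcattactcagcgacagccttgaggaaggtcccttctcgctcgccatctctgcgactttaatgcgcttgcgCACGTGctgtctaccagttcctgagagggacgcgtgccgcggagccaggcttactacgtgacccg
WDR12: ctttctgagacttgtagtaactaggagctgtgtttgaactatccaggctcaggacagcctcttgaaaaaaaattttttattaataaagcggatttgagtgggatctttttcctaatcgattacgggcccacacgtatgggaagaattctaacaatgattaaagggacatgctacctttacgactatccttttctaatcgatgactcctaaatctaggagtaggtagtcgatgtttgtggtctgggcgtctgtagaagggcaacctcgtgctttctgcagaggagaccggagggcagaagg
FBL: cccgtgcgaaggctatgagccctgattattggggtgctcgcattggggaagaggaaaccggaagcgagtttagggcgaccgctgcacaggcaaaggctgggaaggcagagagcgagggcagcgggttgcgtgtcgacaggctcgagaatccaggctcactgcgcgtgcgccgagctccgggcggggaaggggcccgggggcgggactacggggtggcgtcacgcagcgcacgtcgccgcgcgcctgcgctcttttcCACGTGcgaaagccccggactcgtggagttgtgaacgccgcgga
NOC4L: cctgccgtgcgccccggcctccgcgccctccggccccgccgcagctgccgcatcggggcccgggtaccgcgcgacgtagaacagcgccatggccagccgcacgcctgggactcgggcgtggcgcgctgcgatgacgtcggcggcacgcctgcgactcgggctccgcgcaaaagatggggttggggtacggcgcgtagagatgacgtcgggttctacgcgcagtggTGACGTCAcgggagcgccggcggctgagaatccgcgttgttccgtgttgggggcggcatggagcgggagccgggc

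Start regions were matched by symbol for 43 of the 50 genes. The E-box CACGTG, the site of MYC and related factors, which reads the same on both strands, was in 19 of the 43 (44.2%), beside 10.5% of 8459 start regions of genes tested and 7.26% of all 35116 regions. Genes with and without it had like medians in KO cells and a lower one with it in WT cells, a difference that was not tested: the median log2 change with CPT was -0.42 with the word and -0.48 without it in KO cells, and -0.67 with and -0.48 without it in WT cells, where 8 of 19 genes with it and 12 of 24 without it were called lower. The 8-base ATF/CRE word TGACGTCA was in 1 of the 43, NOC4L, starting 25 bases before the start, beside 3.46% of genes tested and 1.85% of all regions. The AP-1 word TGACTCA, or TGAGTCA on the other strand, was in 0 of the 43, beside 2.98% of genes tested. The shorter word TGACG, or CGTCA on the other strand, which also lies inside TGACGTCA, was in 21 of the 43 (48.8%), beside 35.2% of genes tested and 24.6% of all regions. A match of letters is not a bound site.

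Among the 7 genes of snoRNP proteins, NOP58, DKC1 and GAR1 fell in both lines and the other 4 did not pass the test. Of all genes, 17.9% were called lower in KO and 18.5% in WT cells. In the box C/D particle, which methylates rRNA, NOP58 fell while its partners NOP56 and FBL, the methyltransferase itself, did not pass the test. NOP58 had log2 signals of 9.56, 9.59 and 9.19 on the KO CPT arrays, against 10.52, 10.52 and 10.72 under KO DMSO. In WT cells it had 9.71, 9.80 and 9.64 under CPT, against 10.36, 10.80 and 10.66 under DMSO. CPT and DMSO arrays did not overlap in either line, and the log2 changes were -1.14 ± 0.17 in KO cells (adjusted p = 0.000473), a 2.2-fold fall, and -0.89 ± 0.17 in WT cells (adjusted p = 0.00228). FBL had 10.67, 10.93 and 10.98 under CPT in KO cells, against 10.73, 10.97 and 10.90 under DMSO. In WT cells FBL had 10.96, 11.17 and 11.37 under CPT, against 11.04, 11.03 and 11.29 under DMSO. These overlap, with changes of -0.01 ± 0.17 in KO cells (adjusted p = 0.977) and 0.05 ± 0.17 in WT cells (adjusted p = 0.861), and under median scaling FBL was called higher in WT cells. NOP56 had changes of 0.00 in KO and -0.22 in WT cells on the probe used.

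In the H/ACA particle, which pseudouridylates rRNA and also holds telomerase RNA, DKC1 and GAR1 fell. DKC1, its pseudouridine synthase, had 10.53, 10.23 and 10.29 under CPT in KO cells, against 11.15, 11.30 and 11.48 under DMSO. In WT cells DKC1 had 10.38, 10.34 and 10.11 under CPT, against 11.15, 11.28 and 11.41 under DMSO. That is a change of -0.96 ± 0.16 in KO cells (adjusted p = 0.000909) and -1.01 ± 0.16 in WT cells (adjusted p = 0.000698), 1.95-fold and 2.01-fold. GAR1 also fell (-0.53 in KO and -0.54 in WT cells), but its call is lost in both lines when its 4 probes are averaged. The small core proteins NHP2 and NOP10 were not called: NHP2 changed by 0.14 ± 0.25 in KO cells (adjusted p = 0.711) and 0.29 ± 0.25 in WT cells (adjusted p = 0.397), where median scaling called it higher. NHP2 arrays overlapped, at 11.10, 10.97 and 10.71 under CPT against 11.05, 10.92 and 10.39 under DMSO in KO cells. The WT arrays of NHP2 had 11.63, 11.16 and 11.11 under CPT against 11.48, 10.86 and 10.68 under DMSO. Thus the RNA for the catalytic protein fell with CPT in the H/ACA group and did not pass the test in the C/D group. The proteins were not measured.

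Of the nucleolar phosphoproteins and rDNA transcription factors, 3 of 5 were measured. In each line 1 was called lower, beside 17.9% of all genes in KO and 18.5% in WT cells. This was MYBBP1A, a nucleolar protein that binds MYB and p53. It changed by -0.81 ± 0.24 in KO cells (adjusted p = 0.0206) and -0.85 ± 0.24 in WT cells (adjusted p = 0.0174), but by -0.26 in each without background correction. The KO arrays of MYBBP1A had 5.22, 4.70 and 4.30 under CPT against 5.65, 5.60 and 5.41 under DMSO, and the WT arrays 4.90, 4.49 and 4.34 under CPT against 5.54, 5.59 and 5.14 under DMSO. The probe was near the floor: it was detected on 1 of 3 KO CPT arrays and 0 of 3 WT CPT arrays. On all 3 DMSO arrays of each line it was detected, so it passed the filter through the treatment where it was higher. Its call is therefore description only. In WT cells the fall is at least 1.3-fold, from the mean under DMSO over the lowest signal detected on each CPT array. NCL, nucleolin, one of the most abundant nucleolar proteins, lay at 11.43, 11.13 and 11.20 under CPT in KO cells against 11.71, 11.45 and 11.45 under DMSO, with a change of -0.29 ± 0.16 (adjusted p = 0.209). In WT cells NCL lay at 11.36, 11.05 and 10.96 under CPT against 11.57, 11.62 and 11.45 under DMSO, a change of -0.42 ± 0.16 (adjusted p = 0.0687, or 0.0145 with the replicate block), and median scaling turned both changes to above 0. NOLC1, a snoRNP chaperone, had changes of -0.37 in KO and -0.34 in WT cells and was not called.

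The UTP-A complex, which binds the 5′ end of the precursor first, was the role group in which every measured gene fell. All 5 of its measured genes, UTP4, UTP15, NOL11, HEATR1 and WDR75, were called lower in both lines. Of all genes, 17.9% were called lower in KO and 18.5% in WT cells. The group's median log2 change was -1.01 in KO and -1.19 in WT cells. NOL11 moved most, at 9.39, 8.73 and 8.63 under CPT in KO cells against 10.30, 10.33 and 10.39 under DMSO. In WT cells NOL11 had 9.16, 8.70 and 9.13 under CPT against 10.39, 10.63 and 10.83 under DMSO. The change was -1.42 ± 0.22 in KO cells (adjusted p = 0.000512), 2.68-fold, and -1.62 ± 0.22 in WT cells (adjusted p = 0.000234), 3.07-fold. HEATR1, a very large scaffold protein, moved least when both lines were averaged. The KO arrays of HEATR1 had 8.68, 8.08 and 7.78 under CPT against 9.29, 9.00 and 9.10 under DMSO, and the WT arrays 8.36, 8.03 and 7.82 under CPT against 9.01, 9.03 and 9.18 under DMSO. Its changes were -0.95 ± 0.22 (adjusted p = 0.00735) in KO and -1.01 ± 0.22 (adjusted p = 0.00522) in WT cells. CPT and DMSO arrays did not overlap for any UTP-A gene in either line. CPT arrays lay wholly below DMSO arrays for 25.4% of all genes in KO and 22.3% in WT cells. UTP15 was above background on 2 of 3 CPT arrays of each line, and its KO call ends when any of 3 arrays is left out. On the authors' normalized values UTP15 and HEATR1 were not called in either line, and WDR75 was not called in KO cells.

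Of the 6 genes of UTP-B, another early complex, 3 fell in each line (50%, beside 17.9% of all genes in KO and 18.5% in WT cells). UTP6, WDR36 and UTP18 fell by more than 1 log2 unit in both lines, while PWP2, TBL3 and WDR3 did not pass the test. WDR36 and UTP18 were not called in either line on the authors' normalized values. UTP6 had 7.72, 7.24 and 7.64 under CPT in KO cells against 8.75, 8.59 and 9.29 under DMSO. In WT cells UTP6 had 7.72, 7.42 and 8.29 under CPT against 8.94, 8.86 and 9.61 under DMSO, so replicate 3 was highest under both treatments. The change was -1.35 ± 0.28 in KO cells (adjusted p = 0.00332) and -1.33 ± 0.28 in WT cells (adjusted p = 0.00368). TBL3 had 5.55, 6.15 and 5.36 under CPT in KO cells against 6.28, 5.95 and 6.09 under DMSO, and in WT cells 6.11, 5.93 and 6.09 under CPT against 6.33, 6.16 and 6.18 under DMSO. Its changes of -0.42 ± 0.20 (adjusted p = 0.13) and -0.17 ± 0.20 (adjusted p = 0.543) were not called. PWP2 and WDR3 were near background: no CPT array of either line detected PWP2 (0 of 3 each), and WDR3 was seen on 0 of 3 KO and 1 of 3 WT CPT arrays, so the size of their changes is bounded by background. PWP2 passed the detection filter through DMSO arrays alone. For PWP2 in WT cells the bound is at least 1.06-fold lower (adjusted p = 0.0511). With the replicate block, PWP2 in WT cells (adjusted p = 0.0332) and WDR3 in KO cells (adjusted p = 0.0404) were called lower.

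Among the 10 other measured genes of the small subunit processome, 3 fell in KO cells and 4 in WT cells. The shares of all genes called lower were 17.9% and 18.5%. NAT10, the acetyltransferase that modifies cytidines in the small subunit rRNA, had 8.48, 8.90 and 8.87 under CPT in KO cells against 10.06, 10.20 and 10.42 under DMSO. In WT cells NAT10 had 8.77, 9.00 and 8.76 under CPT against 10.01, 10.15 and 10.39 under DMSO. CPT and DMSO arrays were more than 1 log2 unit apart at their nearest in each line. Its change of -1.48 ± 0.18 in KO cells (adjusted p = 0.000113) had the smallest p of the 50 genes there, and it was -1.34 ± 0.18 in WT cells (adjusted p = 0.000226). UTP11 and BMS1, a GTPase of the processome, fell in both lines too, with changes of -1.18 and -0.74 in KO cells and of -1.25 and -0.69 in WT cells. RRP9, a U3-specific protein, and NOL6 had changes between -0.80 and -0.61 that were not called, but were with the replicate block (adjusted p = 0.0022 and 0.0431 in KO cells, 0.00254 and 0.0218 in WT cells). NOC4L lay at the other end. It had 6.77, 6.77 and 5.53 under CPT against 6.06, 5.71 and 6.36 under DMSO in KO cells, and 7.06, 6.93 and 5.50 under CPT against 6.56, 6.03 and 6.03 under DMSO in WT cells. Replicates 1 and 2 went up and replicate 3 went down in both lines, and the changes of 0.31 ± 0.41 in KO cells (adjusted p = 0.606) and 0.29 ± 0.41 in WT cells (adjusted p = 0.629) were not called.

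Of the 5 pre-40S factors, 1 fell in each line (20%), near the share of all genes called lower (17.9% in KO and 18.5% in WT cells). RRP12, known in yeast for subunit export, had 6.92, 6.63 and 7.47 under CPT in KO cells against 8.09, 8.46 and 8.34 under DMSO. In WT cells RRP12 had 7.28, 7.13 and 7.60 under CPT against 8.11, 8.31 and 8.44 under DMSO. The change was -1.28 ± 0.22 in KO cells (adjusted p = 0.00108) and -0.95 ± 0.22 in WT cells (adjusted p = 0.0068). TSR1, a GTPase-like factor of late pre-40S particles, had 9.24, 8.40 and 8.36 under CPT against 8.59, 8.47 and 9.09 under DMSO in KO cells, and 9.02, 8.21 and 8.32 under CPT against 8.65, 8.38 and 9.21 under DMSO in WT cells. These ranges overlap, with changes of -0.05 ± 0.31 (adjusted p = 0.928) in KO and -0.23 ± 0.31 (adjusted p = 0.613) in WT cells. LTV1 and PNO1 were not called, but were lower in WT cells with the replicate block (adjusted p = 0.0152 and 0.00735), where their changes were -0.61 and -0.72, beside -0.10 and -0.34 in KO cells.

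In the PeBoW complex, which is needed to process the large subunit rRNA, WDR12 fell while PES1 did not pass the test. WDR12 had 8.54, 8.30 and 8.01 under CPT in KO cells against 9.50, 9.64 and 9.81 under DMSO. In WT cells WDR12 had 8.72, 8.23 and 8.31 under CPT against 10.00, 9.90 and 9.77 under DMSO. Its change of -1.37 ± 0.19 in KO cells (adjusted p = 0.000262) was 2.58-fold, and that of -1.47 ± 0.19 in WT cells (adjusted p = 0.000173) had the smallest p of the 50 genes there. PES1 had 7.90, 8.16 and 7.26 under CPT against 7.88, 7.98 and 8.16 under DMSO in KO cells, a change of -0.23 ± 0.31 (adjusted p = 0.61). In WT cells PES1 had 8.26, 8.52 and 7.22 under CPT against 7.92, 8.26 and 8.24 under DMSO, a change of -0.14 ± 0.31 (adjusted p = 0.761). The CPT array of replicate 3 was the low one in both lines, and without it the PES1 change was 0.02 in KO and 0.25 in WT cells. BOP1 lay between, at -0.46 in KO and -0.47 in WT cells, and was not called, but was lower with the replicate block (adjusted p = 0.0275 and 0.0254). Its CPT arrays all lay below its DMSO arrays in both lines.

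Among 11 other large subunit factors, 4 fell in KO (17.9% of all genes) and 5 in WT cells (18.5% of all genes). This group held both the lowest and the highest change of all 50 genes. NOC3L, whose yeast counterpart pairs with that of NOC2L in large subunit precursors, had 7.41, 6.36 and 6.26 under CPT in KO cells against 8.60, 8.11 and 8.13 under DMSO. In WT cells NOC3L had 6.72, 6.16 and 6.35 under CPT against 8.24, 8.28 and 7.65 under DMSO. The change of -1.60 ± 0.30 in KO cells (adjusted p = 0.00185) was 3.04-fold and that of -1.65 ± 0.30 in WT cells (adjusted p = 0.0016) 3.13-fold. NOC3L was not called in either line on the authors' normalized values. NOC2L went the other way in every pair of arrays, at 7.05, 6.63 and 6.07 under CPT against 6.43, 5.92 and 5.75 under DMSO in KO cells. In WT cells NOC2L had 7.53, 6.78 and 6.57 under CPT against 7.17, 6.27 and 6.10 under DMSO. Replicate 1 was high in all groups, so the ranges overlap and the changes of 0.55 ± 0.34 in KO cells (adjusted p = 0.248) and 0.45 ± 0.34 in WT cells (adjusted p = 0.35) were not called. With the replicate block, which compares within numbers, NOC2L was called higher in KO cells (adjusted p = 0.00621) and in WT cells (adjusted p = 0.018).

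GNL2, a nucleolar GTPase, fell in both lines (-1.10 in KO, -1.07 in WT cells), as did RRP1B (-0.63 and -0.81) and MRTO4 (-0.65 and -0.50), which resembles the stalk protein P0 and in yeast is replaced by it. The MRTO4 call in WT cells (adjusted p = 0.0497) was lost when any of 10 arrays was left out. NOL9, a polynucleotide kinase that acts on the spacer between the large subunit rRNAs, had a change of -0.56 ± 0.40 in KO cells (adjusted p = 0.319, or 0.0269 with the replicate block), and fell in WT cells, with a change of -1.39 ± 0.40 (adjusted p = 0.02). Without background correction the changes were -0.22 in KO and -0.54 in WT cells, and leaving out 1 array moved the KO value between -0.89 (without KO DMSO replicate 1) and -0.25 (without KO CPT replicate 1). It was detected on 2 of 3 KO and 1 of 3 WT CPT arrays. The WT call of NOL9 ends without any of 3 arrays, and that of NOP14 (-0.67, adjusted p = 0.0258) without any of 4. The small genes NOP16, NIP7 and RRS1, and WDR74 and NOP2, were not called in either line.

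**Figure D2:**
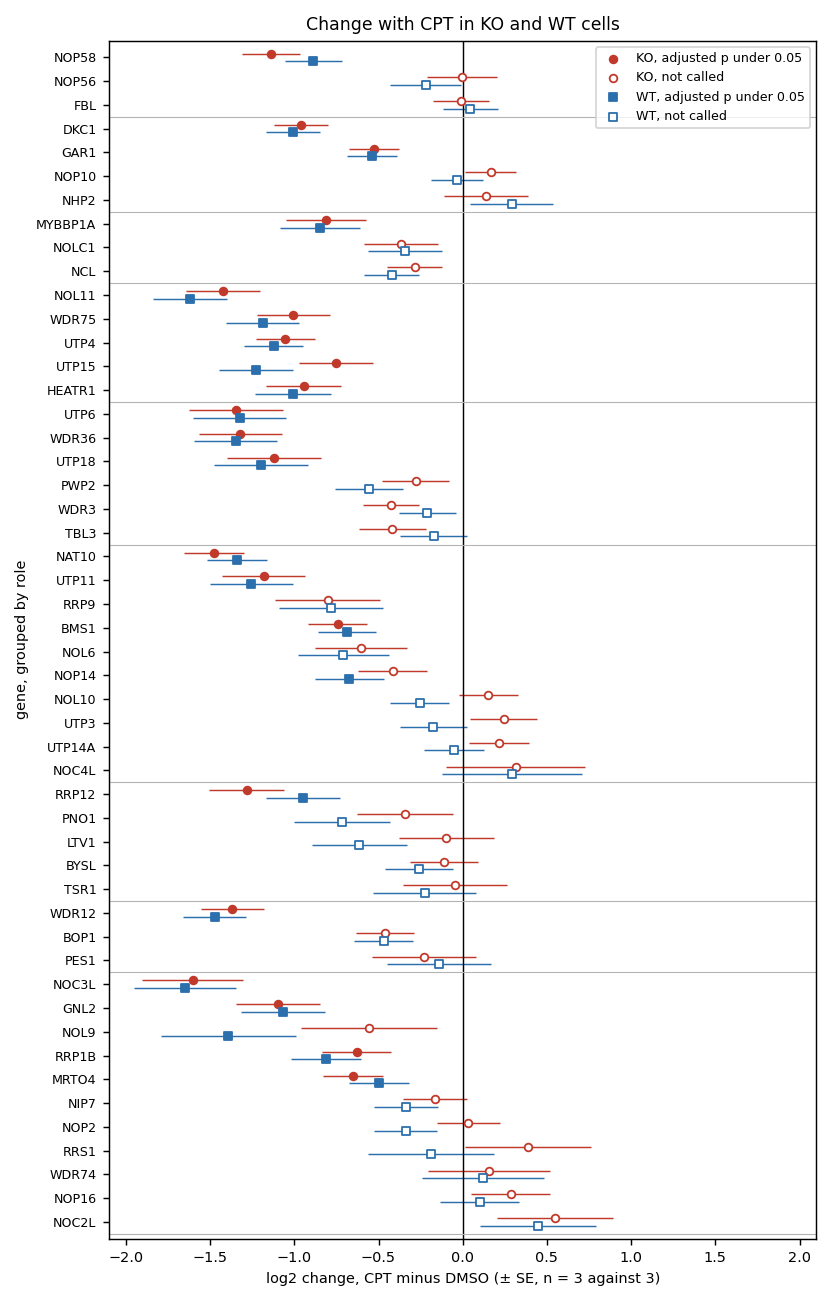
Log2 change of each of the 50 genes with CPT, as CPT minus DMSO (x axis; bars, SE; n = 3 against 3), with KO cells as red circles above WT cells as blue squares, and genes grouped by role from top to bottom as in the heat map. Filled symbols passed an adjusted p under 0.05, all of them below 0, from -1.65 to -0.50.

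**Figure D3:**
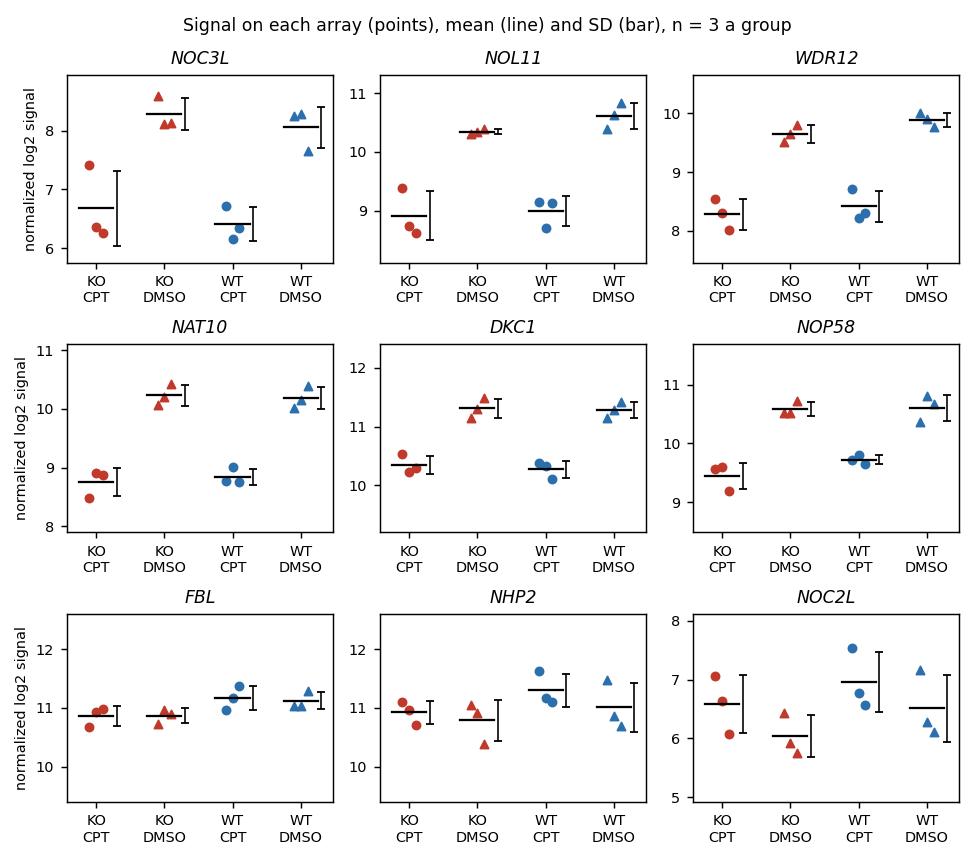
Normalized log2 signal (y axis, the same span in each panel) of 9 genes on each array in KO CPT, KO DMSO, WT CPT and WT DMSO, from left to right, with the mean (line) and SD (bar, n = 3). The 6 genes of the upper rows have CPT arrays wholly below DMSO arrays in both lines, while FBL, NHP2 and NOC2L overlap.

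For 13 genes more than 1 probe was kept, and in 9 of them all probes lay within 0.5 log2 units of each other in both CPT changes. GAR1, NOL6, NOP2 and NOP56 did not. The 4 GAR1 probes gave -0.53 (the one used), -0.48, 0.05 and -0.12 in KO cells and -0.54, -0.41, -0.16 and -0.51 in WT cells. NOL6 gave -0.61 (used) and -0.22 in KO cells, and -0.71 and 0.10 in WT cells. NOP2, an rRNA cytosine methyltransferase, gave 0.03 (used), 0.11, 0.63 and 0.42 in KO cells, and -0.34, -0.20, 0.16 and 0.14 in WT cells. NOP56 gave 0.00 (used), 0.68 and 0.47 in KO cells, and -0.22, 0.22 and 0.11 in WT cells. No direction is given for NOP2 and NOP56.

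A property not used to choose the genes, their length in the genome (RefSeq, GRCh38.p14), ran alongside the response. All 50 genes had a length, with a median of 19413 bp beside 26803 bp over all genes tested, from 1418 bp in NOP10 to 119222 bp in NOL10. Spearman's rho between length and the CPT change over the 50 genes was -0.64 in KO and -0.62 in WT cells, and over the 10459 genes with a length -0.44 and -0.45. These are correlations across genes of the same arrays, which are not independent replicates, and the relation was looked at after the values were seen. It was present in each replicate, between -0.68 and -0.48 in KO cells and between -0.60 and -0.48 in WT cells. NOL10, detected on 1 or 2 arrays of each group, stood off the line, and without it rho was -0.71 in KO and -0.67 in WT cells.

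Of the 25 genes longer than the median, 15 fell in KO cells (60%) and 17 in WT cells (68%), with a median change of -0.95 in each line. Of the 25 shorter ones, 6 fell in each line (24%), with medians of -0.16 in KO and -0.34 in WT cells. Among all genes the same length split gave 26.1% called lower in KO and 27.1% in WT cells above it, and 5.86% and 5.97% below it. On either side of the split the list had a larger share called lower than all genes there. The list was chosen with earlier results of these data known, so these shares are description only. The split also does not match length within a side: rho over the shorter and the longer genes was -0.53 and -0.50 in KO cells. In WT cells it was -0.51 and -0.34. The roles differ in length as well: the median was 34079 bp in UTP-A and 37096.5 bp in UTP-B, but 6825.5 bp in the H/ACA group and 11922 bp in the C/D group, and within these last groups NOP58 (37899 bp) and DKC1 (14826 bp), the longest of each, were the ones that changed most. How much of the difference between roles goes with length was not tested. The mean signal of a gene had rho of 0.04 in KO and 0.07 in WT cells with its change.

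**Figure D4:**
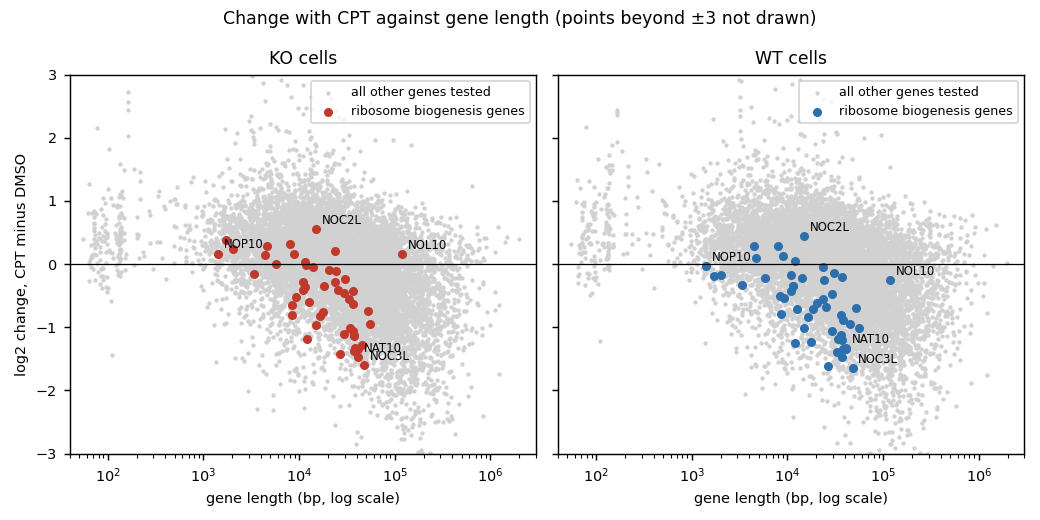
Log2 change with CPT (y axis, CPT minus DMSO) against gene length (x axis, bp, log scale) in KO cells (left) and WT cells (right), with the 50 genes in colour over all other genes tested in grey. Changes beyond ±3 (22 genes in KO and 14 in WT, none of the 50) are outside the axis; the coloured points slope down to the right, with NOL10 apart at the long end.

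No gene's response to CPT was shown to differ between KO and WT cells. Across the 50 genes, the CPT changes in KO and WT cells, which share no arrays, had Pearson's r = 0.92, beside 0.93 over all genes, where all points share the same 12 arrays. The test of the difference in response (KO minus WT, replicate block) called 0 of 50 genes and 0% of all genes, and 1 of 50 had an unadjusted p under 0.05, beside 516 of 10464. The methods' paired t-test gave 5 of 50 (10%) at an unadjusted p under 0.05, close to the 8.55% of all genes, and 0 after Benjamini-Hochberg adjustment. The 95% interval of the difference, not adjusted for the number of genes, reached a median of 0.51 log2 units to either side. Smaller differences could therefore not be seen in most genes, and larger ones could be missed after adjustment. Over all genes the differences ran from -1.79 to 2.02, and none was called. NOL9 had the smallest p: its response differed by 0.84 (95% interval 0.26 to 1.41, unadjusted p = 0.0081, adjusted p = 0.847, by limma), or 0.32 without background correction. The NOL9 arrays were 4.81, 5.72 and 5.75 under CPT against 5.30, 6.14 and 6.49 under DMSO in KO cells, and 4.57, 4.68 and 5.39 under CPT against 5.67, 6.10 and 7.04 under DMSO in WT cells, so each WT replicate fell further than its KO counterpart. NOL10 came next, with a difference of 0.41 (95% interval -0.03 to 0.84, limma unadjusted p = 0.0631). Its arrays lay between 4.45 and 5.19 in all groups, at the edge of detection.

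Without CPT, no gene was called between KO and WT cells, though most values lay below 0. Under DMSO 0 of 50 passed the threshold (1.01% of all genes) and 3 (6%) had an unadjusted limma p under 0.05, beside 9.82% of all genes. The median log2 difference, KO minus WT, was -0.20 (0.01 over all genes) and 42 of 50 values (84%) were negative. Negative values made up 48.7% of all genes, and 78.9% of the 95 further ribosome biogenesis genes described below. The replicate medians were -0.20, -0.18 and -0.13. KO arrays lay wholly below WT arrays for 11 genes (9.11% of all genes) and wholly above for 1, WDR36 (9.29%). UTP14A had the smallest p, with 8.72, 8.70 and 8.63 in KO DMSO against 9.11, 9.11 and 9.24 in WT DMSO, a difference of -0.47 ± 0.18 (adjusted p = 0.361). Under CPT UTP14A overlapped, at 9.16, 8.56 and 8.98 in KO against 9.34, 8.99 and 8.97 in WT cells. NOP10, the smallest H/ACA protein, had 11.81, 11.96 and 11.89 in KO DMSO against 12.42, 12.25 and 12.17 in WT DMSO, a difference of -0.39 ± 0.15 (adjusted p = 0.371). Under CPT NOP10 had 12.12, 12.02 and 12.01 in KO against 12.41, 12.29 and 12.03 in WT cells, a difference of -0.19 ± 0.15.

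Under CPT no gene was called between the lines either. There 0 of 50 genes were called (0.726% of all genes), with 1 (2%) at an unadjusted limma p under 0.05 beside 10.4% of all genes. Of the 50 values 33 (66%) were negative, beside 46.9% over all genes and 62.1% over the 95 further ribosome biogenesis genes. The median difference was -0.07 (0.02 over all genes). This median was 0.01 without either WT CPT replicate 1 or KO CPT replicate 3, -0.15 without KO CPT replicate 1 and -0.13 without WT CPT replicate 3. KO arrays lay wholly below WT arrays for 3 genes (6.21% of all genes). FBL had a difference of -0.31 ± 0.17 (adjusted p = 0.598), with 10.67, 10.93 and 10.98 in KO CPT against 10.96, 11.17 and 11.37 in WT CPT. MRTO4 had the smallest p, at 8.03, 7.58 and 8.08 in KO CPT against 8.69, 8.43 and 8.29 in WT CPT, a difference of -0.58 ± 0.18 (adjusted p = 0.218). Under DMSO MRTO4 had 8.48, 8.58 and 8.58 in KO against 9.11, 8.80 and 9.00 in WT cells, a difference of -0.42 ± 0.18 (adjusted p = 0.446). KO arrays were thus below WT arrays under both treatments.

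Averaged over both treatments, MRTO4 was the 1 gene of 50 that was called, lower in KO cells by 0.50 ± 0.13 (adjusted p = 0.0488, or 0.0109 with the replicate block), against 1.77% of all genes lower and 3.68% in either direction. The call is narrow: leaving out any of 11 of the 12 arrays ended it, with an adjusted p of up to 0.116 without KO CPT replicate 2. With the replicate block, NOC2L and UTP11 were called lower as well (13.2% of all genes called). WDR36 was the highest member, at 0.37 (adjusted p = 0.313).

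**Figure D5:**
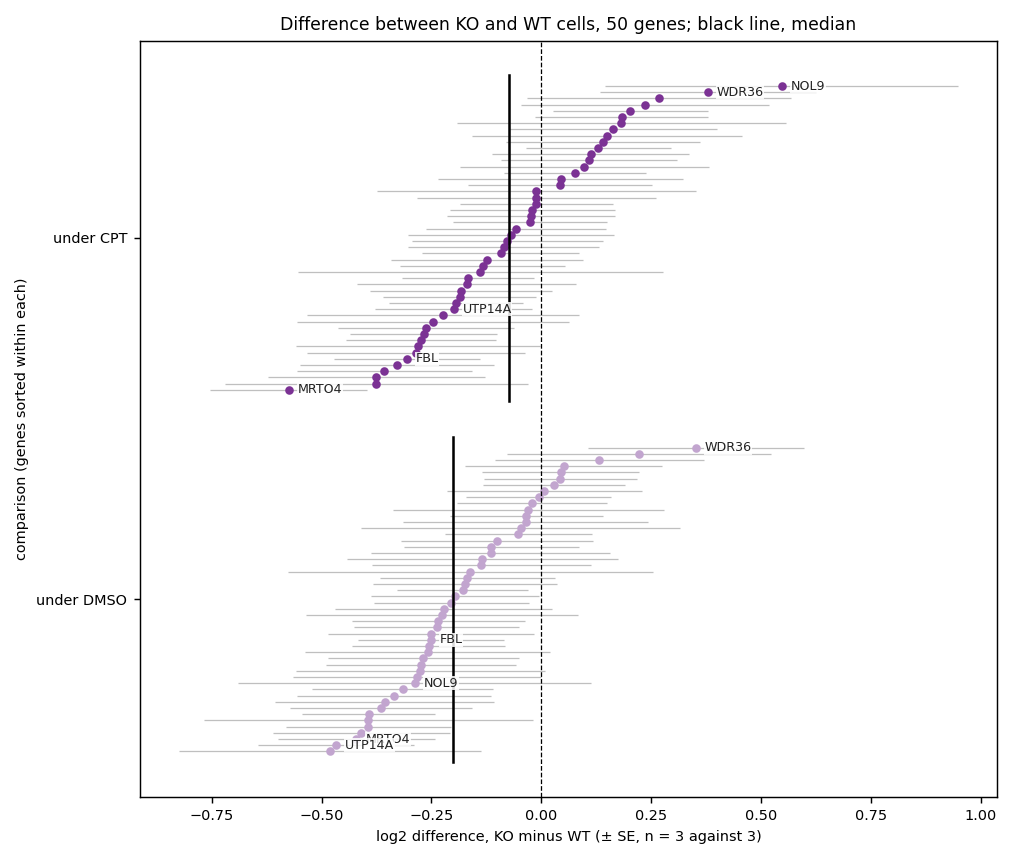
Log2 difference of each of the 50 genes between KO and WT cells (x axis, KO minus WT; bars, SE; n = 3 against 3), under CPT (upper set) and under DMSO (lower set), sorted within each set, with a black line at the median. The median lies at -0.07 under CPT and -0.20 under DMSO, and no gene passed an adjusted p under 0.05 in either set.

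A wider list of 99 further ribosome biogenesis genes, of which 95 were measured, held genes that fell and genes that rose. In KO cells 32 fell (33.7%, beside 17.9% of all genes) and 8 rose (beside 13.8% of all genes), with a median of -0.31. In WT cells 37 fell (38.9%, beside 18.5%) and 4 rose (beside 13%), with a median of -0.36. RCL1, which acts in early processing of the small subunit precursor, changed by -2.17 ± 0.25 in KO and by -2.44 ± 0.25 in WT cells. EMG1, an rRNA pseudouridine methyltransferase, changed by -2.24 ± 0.28 and by -1.82 ± 0.28, and EXOSC3, a cap subunit of the RNA exosome, changed by -2.07 ± 0.24 and by -1.96 ± 0.24. The genes that rose most were DIS3, an exosome nuclease, which rose by 1.24 ± 0.28 in KO and 1.20 ± 0.28 in WT cells, and UTP25, a processome protein, which rose by 1.28 ± 0.23 and 1.02 ± 0.23. Replicate 3 rose least: DIS3 changed by 1.44, 1.75 and 0.52 in KO replicates 1, 2 and 3 and by 1.53, 1.81 and 0.27 in WT replicates 1, 2 and 3. UTP25 changed by 1.36, 1.34 and 1.14 in KO cells and by 1.57, 1.15 and 0.33 in WT cells. Before background correction and normalization the replicate 3 signal of DIS3 was 129 under CPT against 131.1 under DMSO in KO cells and 126.1 against 130.8 in WT cells, and that of UTP25 in WT cells was 195.4 against 217.5, so there it was lower with CPT. DIS3 was detected on 2 of 3 DMSO arrays of each line, and without background correction its change was 0.49 in each. Of the 35 large subunit factors 13 fell in KO (37.1%) and 18 in WT cells (51.4%). Of the 22 exosome and RNase MRP/P genes 7 (31.8%) and 6 (27.3%) fell. The shares of all genes called lower were 17.9% in KO and 18.5% in WT cells.

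Array quality ran as follows. Between 13713 and 15639 probes were detected on CPT arrays and between 15399 and 16823 on DMSO arrays, so depth of detection moved with CPT, and its part in the falls was not tested. Arrays of one group correlated at 0.946 to 0.988. Of 9 epithelial markers 6 were detected on all 12 arrays, and KRT20, CDX1 and VIL1, which mark differentiated colon cells, on none. The summed epithelial markers ran from 10816 to 13310 in KO CPT and 15678 to 16343 in KO DMSO. In WT cells they ran from 10588 to 13171 under CPT and 13794 to 16971 under DMSO. The sum was thus lower with CPT in both lines, and its part in the falls was not tested. Not every marker fell. Mean log2 KRT19 was 12.36 under CPT against 13.14 under DMSO in KO cells, and 12.11 against 12.86 in WT cells. KRT8 was also lower in both lines. EPCAM hardly changed (11.38 against 11.37, and 11.61 against 11.62). CDH1 was higher in both lines, and KRT18 and CDX2 were higher in KO and lower in WT cells. Of 7 fibroblast markers VIM alone, and of 8 blood and endothelial markers CD68 alone, was detected on all arrays, and PTPRC, CD3E, PECAM1, VWF and HBB were detected on none. The summed fibroblast markers ran from 393 to 477 in KO CPT, 317 to 372 in KO DMSO, 278 to 354 in WT CPT and 243 to 266 in WT DMSO. The summed blood and endothelial markers ran from 311 to 517 in KO CPT, 258 to 293 in KO DMSO, 491 to 944 in WT CPT and 343 to 504 in WT DMSO.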

How the data were processed

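Total RNA was hybridised to Illumina HumanHT-12 v4 arrays, 12 in all. The authors deposited, for each array, the non-normalized mean probe intensity and its detection p-value, exported from GenomeStudio (version not given in the sources used here), and a second table of normalized intensity values, whose sorted values are nearly equal within replicate 1 and within replicates 2 and 3 but differ between these sets, as after separate normalization. The deposited intensity values were background-corrected from the detection p-values (limma 3.58.1 nec, offset 16; R 4.3.3), quantile normalized and taken to log2. Of 47300 probes, 30098 were annotated to 1 gene, 8 to several and 17194 to none. Probes with a detection p-value under 0.01 on at least 3 arrays were kept (17264), and a gene took its probe with the highest mean signal. A linear model with the 4 groups was fitted over 10464 genes (8 residual degrees of freedom; 6 with the replicate block) and p-values were adjusted by the Benjamini-Hochberg method over all of them, with a threshold of 0.05. Samples with the same replicate number deviated together (18 pairs, r from 0.25 to 0.69; pairs of different number from -0.59 to 0.03), so the numbers were taken to pair the samples. The labels do not state a pairing. Except for the difference in response, the main p-values do not use it. The number of arrays limits the precision.

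A group with no detected array gives a bound only, set by the lowest signal among detected probes on each of its arrays. Full values are given for the lowest and the highest member of each role by the mean CPT change, for members called between KO and WT cells or, with none, the 2 smallest p, for members whose probes differ by over 0.5, and for the 2 largest called rises and falls of the other lists. Other genes named beside these were named after their values were seen. The members and the lists were chosen with earlier results of these data known. The fit was run on simulated data with independent noise on each array. Real arrays of the same replicate number deviated together, so this run is no check of the p-values under such shared deviation. Alternatives were no background correction, and another scaling, filter, probe rule, threshold and test. Further ones were the normalized values, replicates 2 and 3 alone, blocks, and leaving out each array.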

Additional observations from a re-analysis of the deposited data

How the results depend on the processing

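The CPT counts stayed within 1.5 times of 21 in KO and 23 in WT cells under every alternative but 1. On the authors' normalized values 9 genes were called in KO and 9 in WT cells (12.6% and 12.8% of all genes), with medians of -0.49 and -0.57. Calls lost there in both lines were GAR1, MYBBP1A, UTP15, HEATR1, WDR36, UTP18, UTP11, NOC3L, RRP1B, GNL2 and MRTO4. WDR75 was also lost in KO cells, and NOP14, BMS1 and RRP12 in WT cells. The cause was not tested. Leaving out 1 array gave 17 to 22 in KO cells (22.5% to 36.2% of all genes) and 19 to 26 in WT cells (22.3% to 34.5%). Median scaling moved the median of all genes to 0.20 in KO and 0.22 in WT cells. The members' own median was -0.32 in KO and -0.36 in WT cells there, and -0.28 and -0.43 without background correction. Relative to the all-gene median under median scaling it was -0.53 in KO and -0.58 in WT cells. The calls there were 20 lower and 1 higher (NOP10) in KO cells, beside 14.9% of all genes lower and 37% in either direction. In WT cells they were 20 lower and 3 higher (FBL, NHP2, NOP10), beside 15.3% and 39.5%. GAR1 was lost in both lines and BMS1 and MRTO4 in WT cells. The authors' threshold, a fold above 1.5 with p under 0.05, taken here as unadjusted, gave 22 in KO and 25 in WT cells (32.9% of all genes in each). It added NOL6 and RRP9 in both lines and LTV1 and PNO1 in WT cells. Other settings that called RRP9, NOL6 or BOP1 were the processing set as a block, replicates 2 and 3 alone, no background correction (BOP1) and some left-out arrays. Without background correction the change of 4 of the 21 genes in KO and 7 of the 23 in WT cells was over 1.5 times smaller: MYBBP1A, UTP15 (-0.29 in KO and -0.51 in WT cells), UTP18 (-0.69 and -0.72) and RRP1B (-0.38 and -0.52) in both lines, and WDR36 (-0.82), NOC3L (-1.06) and NOL9 in WT cells. Median scaling gave DKC1 -0.61 in KO and -0.63 in WT cells.

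KO against WT averaged gave 0 genes on the authors' values and with replicates 2 and 3 alone, 3 with the replicate block, and 0 to 1 without 1 array. For the difference in response the paired t-test gave 5 at an unadjusted p under 0.05 (10%, beside 8.55% of all genes) and 0 after adjustment. The replicate block raised all-gene calls to 48.6% in KO and 49.3% in WT cells, and it changed no call of these genes beyond those given with it. Arrays whose loss ended a call, not named above, were 3 for MYBBP1A in WT and 4 in KO cells, 3 for GAR1, 5 for RRP1B and 2 for MRTO4 in KO cells.

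No sign turned for the 21 genes called in KO or the 23 in WT cells under any of these alternatives. Among the other genes with full values, signs turned as follows. Under median scaling, KO cells had 0.16 for NCL, 0.34 for FBL and 0.04 for TSR1, and WT cells had 0.04 for NCL, 0.09 for UTP14A, 0.11 for NOL10 and 0.58 for NOP10, the last called (adjusted p = 0.00789). With the mean over probes, WT cells had 0.03 for UTP14A and 0.02 for NOP10. NOL10 had -0.04 in KO cells on the authors' values, and FBL 0.02 with replicates 2 and 3 alone. Without 1 array, KO cells ranged from -0.08 to 0.09 for FBL, -0.34 to 0.14 for TSR1, -0.43 to 0.02 for PES1 and -0.06 to 0.27 for NHP2, and WT cells from -0.05 to 0.15 for FBL, -0.48 to 0.01 for TSR1, -0.40 to 0.25 for PES1, -0.17 to 0.01 for UTP14A and -0.12 to 0.07 for NOP10. The cause of these changes was not tested. For the 7 genes not detected on all 12 arrays, background limits the size of a change.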
